A study of Mus musculus with 10 samples.

Results

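Gastric-like differentiation genes were followed in KP and KPG1 lung tumours by taking the 7 rows of the count table whose symbol was Pgc, Ctse, Tff1, Tff2, Gkn1, Lgals4 or Spink4, out of 39017 genes. Each symbol had 1 row. The genes were picked with their levels in these same libraries already known, because a few tumours carried much of the signal, so the levels and the differences between the groups are given as a description and no test is read from them. All 7 passed the filter on low counts that left 15922 genes for the fit.

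The stomach lining is renewed from stem cells that give surface mucous cells, neck cells, acid-secreting parietal cells and pepsinogen-secreting chief cells, each with its own set of secreted products. The lung arises from the same embryonic foregut, and the lung lineage is held by the transcription factor Nkx2-1. In mouse lung tumours, loss of Nkx2-1 is known to release a gastric program that depends on Foxa1, Foxa2 and Hnf4a. Pgc is a special case among gastric genes, since normal alveolar type 2 cells also make it.

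The 10 libraries of polyadenylated RNA came from dissociated lung tumours after magnetic removal of CD45-positive cells, 5 from KP controls and 5 from KPG1 mice labelled Glut1-KO. All mice were of the C57BL/6 strain and carried, among other alleles, p53Fl/Fl, and the KPG1 mice carried Glut1Fl/Fl besides. The Glut1 (Slc2a1) genotype of the controls was labelled heterozygous fl/wt, although the series' design speaks of Glut1-WT. Tumours were started by intratracheal Ad5CC10-Cre, an adenovirus that expresses Cre from a promoter of CC10-positive club cells, and were collected after 20 weeks and 1 day. The ages of the mice were not given in the sources used here. All 5 controls were labelled male. Replicates 1 to 3 of the libraries labelled Glut1-KO were female and replicates 4 and 5 male. No label says how many tumours or mice went into a library.

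Totals were 35.3 to 49.8 M counts per library. Slc2a1, the deleted gene, stood at 73.2 to 118 CPM in the controls (counts per M after TMM scaling, the unit of every level below), and among libraries labelled Glut1-KO it ran from 34.6 to 60.3 CPM in the 3 females and from 92.4 to 103 CPM in the 2 males, so the male libraries were not separated from the controls by the gene that names their group. A further number in the deposited names was shared by control replicates 1, 2 and 5, by control replicates 3 and 4, and by replicates 4 and 5 labelled Glut1-KO. If it stands for the mouse, those libraries are not independent. Markers of alveolar type 2 cells were looked at as signs of lineage, and whether tumour cells made them was not tested. All 12 markers of these cells passed the filter. Sftpc, their surfactant protein C gene, ran from 6329 to 36607 CPM in controls and from 12857 to 29646 CPM in the other group.

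RefSeq's promoter table (GRCm38.p6) held 3 of the 7 members. By group means, Pgc was higher and Gkn1 lower in the libraries labelled Glut1-KO, although Pgc was not higher in male replicates 4 and 5. The promoters of this pair, the one with the larger differences between the groups, are shown. Each is the 250 bases before RefSeq's start site, printed 5′ to 3′ on the gene's strand, Pgc at chr17:47726592-47726841 (plus strand) and Gkn1 at chr6:87350916-87351165 (minus strand). The Gkn1 window reaches into the gene's span as given below, whose 5′ end is at 87350942. Distances to a start are counted from RefSeq's. Capitals mark TATAAA in Pgc, and AGATAA and the reverse complement of CTCAAG in Gkn1.
Pgc: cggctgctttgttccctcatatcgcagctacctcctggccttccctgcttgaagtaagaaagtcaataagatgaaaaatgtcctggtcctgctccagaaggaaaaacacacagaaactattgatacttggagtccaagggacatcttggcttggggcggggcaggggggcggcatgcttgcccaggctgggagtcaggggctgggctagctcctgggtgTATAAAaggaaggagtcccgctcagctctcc
Gkn1: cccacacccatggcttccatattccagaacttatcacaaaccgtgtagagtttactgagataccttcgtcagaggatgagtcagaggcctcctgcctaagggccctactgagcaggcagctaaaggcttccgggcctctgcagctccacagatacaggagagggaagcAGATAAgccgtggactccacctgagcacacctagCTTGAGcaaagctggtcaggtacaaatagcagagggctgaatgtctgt
For context, 5 motifs were searched on both strands with no mismatch. The core promoter element TATAAA occurred in 12.4% of 32851 promoter windows of this length, AGATAA, letters that fit Gata6 and its relatives, in 9.99%, TGTTTAC (Foxa factors) in 3.17%, CAAAGTCCA (Hnf4a) in 0.384% and CTCAAG (Nkx2-1) in 13.3%. Pgc held TATAAA from 31 to 26 bases before its start. Gkn1 held AGATAA from 82 to 77 bases before its start and CTCAAG on the other strand from 48 to 43 bases before it. Lgals4 held none of these letters in its window.

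Among the members, the aspartic proteases come first. Pgc (ENSMUSG00000023987, chromosome 17, 47726842 to 47734482, plus strand, GRCm38, 9 exons) encodes progastricsin, the zymogen of a pepsin made by chief cells. It was nearly level in the 5 controls and high in the 3 female libraries labelled Glut1-KO. In control replicates 1 to 5 it stood at 2.40, 2.08, 1.98, 2.90 and 2.17 CPM. Of those labelled Glut1-KO, female replicates 1 to 3 had 8.30, 18.3 and 34.4 CPM, whereas male replicates 4 and 5 had 1.78 and 1.95 CPM. The 3 female libraries thus lay above all 7 male libraries, and the 2 male libraries labelled Glut1-KO lay just below all controls. Group means were 2.31 ± 0.368 and 12.9 ± 13.7 CPM (SD, n = 5 each), and the log2 difference was 1.70 (SE 0.86). With male libraries alone the log2 difference was -0.28, and without replicate 3 labelled Glut1-KO it was 1.10. No control was female, so for the 3 female libraries sex and genotype cannot be told apart, and these were also the libraries with the least Slc2a1.

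Ctse (ENSMUSG00000004552, chromosome 1, 131638306 to 131675505, plus strand) encodes cathepsin E, an intracellular aspartic protease abundant in gastric surface cells. By the median over the libraries it was the member with the highest level per exon length. In RPKM, Tff1 was above Ctse in control replicate 3 and in the 3 females labelled Glut1-KO. Tff2 was above Ctse in control replicate 2 and in female replicate 3. Controls held 591, 235, 353, 354 and 134 CPM of Ctse in replicates 1 to 5. The libraries labelled Glut1-KO held 176, 161, 131, 646 and 378 CPM. The male replicates 4 and 5 labelled Glut1-KO were high and the 3 females were low, the reverse of Pgc, and the groups overlapped over nearly their whole range. Means were 333 ± 171 and 298 ± 218 CPM (SD, n = 5 each), with a log2 difference of -0.27 (SE 0.49). It was 0.74 among male libraries alone, -0.02 without control replicate 1 and -0.62 without replicate 4 labelled Glut1-KO.

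The trefoil peptides are small secreted proteins that protect mucous surfaces, Tff1 in the surface cells of the stomach and Tff2 in its neck cells. Tff1 (ENSMUSG00000024032, chromosome 17, 31161395 to 31165277, minus strand) and Tff2 (ENSMUSG00000024028, chromosome 17, 31141049 to 31144282, minus strand) are neighbours. Control replicates 1 to 5 had 63.4, 18.7, 79.0, 66.4 and 8.54 CPM of Tff1. The libraries labelled Glut1-KO had 79.3, 40.0, 40.9, 19.0 and 39.0 CPM. The lowest and nearly the highest library were both controls, and the groups overlapped. Group means were 47.2 ± 31.4 and 43.6 ± 21.9 CPM (SD, n = 5 each), lower in the libraries labelled Glut1-KO, whereas limma's difference of means on the log2 scale was 0.21 (SE 0.61). The edgeR and DESeq2 fits gave -0.11 each, and limma gave -0.30 without control replicate 5 and -0.03 without control replicate 2 or without replicate 1 labelled Glut1-KO, so no direction is given for Tff1. An antisense gene, Gm15318, overlaps Tff1. It had at most 19 counts in a library, and the counting's use of strand was not given in the sources used here.

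Tff2 was the most variable member. It stood at 38.0, 45.4, 43.2, 15.5 and 0.0241 CPM in control replicates 1 to 5, the last of these a single count in 40.1 M. The libraries labelled Glut1-KO stood at 4.84, 5.18, 66.0, 0.368 and 7.16 CPM. Tff2 was therefore high in 4 controls and in 1 library labelled Glut1-KO, female replicate 3, and all but missing from control replicate 5. The ratio of replicate 3 labelled Glut1-KO to control replicate 5 was 2737, with a 95% interval from 491 to 108000 that covers counting error only. Against the second lowest library, replicate 4 labelled Glut1-KO, it was 179. Group means were 28.4 ± 19.8 and 16.7 ± 27.7 CPM (SD, n = 5 each). The log2 difference of -0.58 (SE 2.05) went to -2.50 without control replicate 5 and to 0.28 without replicate 4 labelled Glut1-KO, so single libraries decided its sign and size.

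Gkn1 (ENSMUSG00000030050, chromosome 6, 87345650 to 87350942, minus strand) encodes gastrokine 1, a secreted product of surface mucous cells. Controls had 13.8, 1.91, 28.5, 22.9 and 2.99 CPM in replicates 1 to 5. The libraries labelled Glut1-KO had 1.10, 3.64, 2.49, 0.307 and 1.88 CPM. Control replicates 1, 3 and 4 were above all libraries labelled Glut1-KO, and control replicates 2 and 5 lay within the range of the latter. The log2 difference was -2.46 (SE 1.00) between means of 14.0 ± 11.8 and 1.88 ± 1.28 CPM (SD, n = 5 each). The 3 high controls did not share the number in the deposited names, replicate 1 carrying one and replicates 3 and 4 the other.

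The last members are better known from the intestine. Lgals4 (ENSMUSG00000053964, chromosome 7, 28833854 to 28841708, plus strand) encodes galectin-4, a sugar-binding protein of gut epithelium. It varied least, with 115, 79.4, 39.0, 51.3 and 25.9 CPM in control replicates 1 to 5. In the libraries labelled Glut1-KO it had 73.4, 30.3, 29.4, 31.8 and 62.5 CPM. The groups overlapped. The means of 62.2 ± 35.7 and 45.5 ± 20.9 CPM (SD, n = 5 each) gave a log2 difference of -0.37 (SE 0.41), which was -0.11 without control replicate 1 and -0.64 without control replicate 5.

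Spink4 (ENSMUSG00000028415, chromosome 4, 40920052 to 40931395, plus strand) encodes a Kazal-type protease inhibitor of intestinal goblet cells. Controls had 0.430, 2.00, 1.16, 2.82 and 5.30 CPM in replicates 1 to 5, from 17 to 220 counts. The libraries labelled Glut1-KO had 0.243, 0.262, 0.0449, 0.0920 and 0.159 CPM, from 2 to 11 counts. All 5 libraries labelled Glut1-KO, male and female, lay below all 5 controls. Spink4 had means of 2.34 ± 1.88 and 0.160 ± 0.0937 CPM (SD, n = 5 each) and a log2 difference of -3.56 (SE 0.76). Control replicate 5, with the lowest Tff1, Tff2 and Lgals4 of all libraries, had the highest Spink4.

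**Figure D1:**
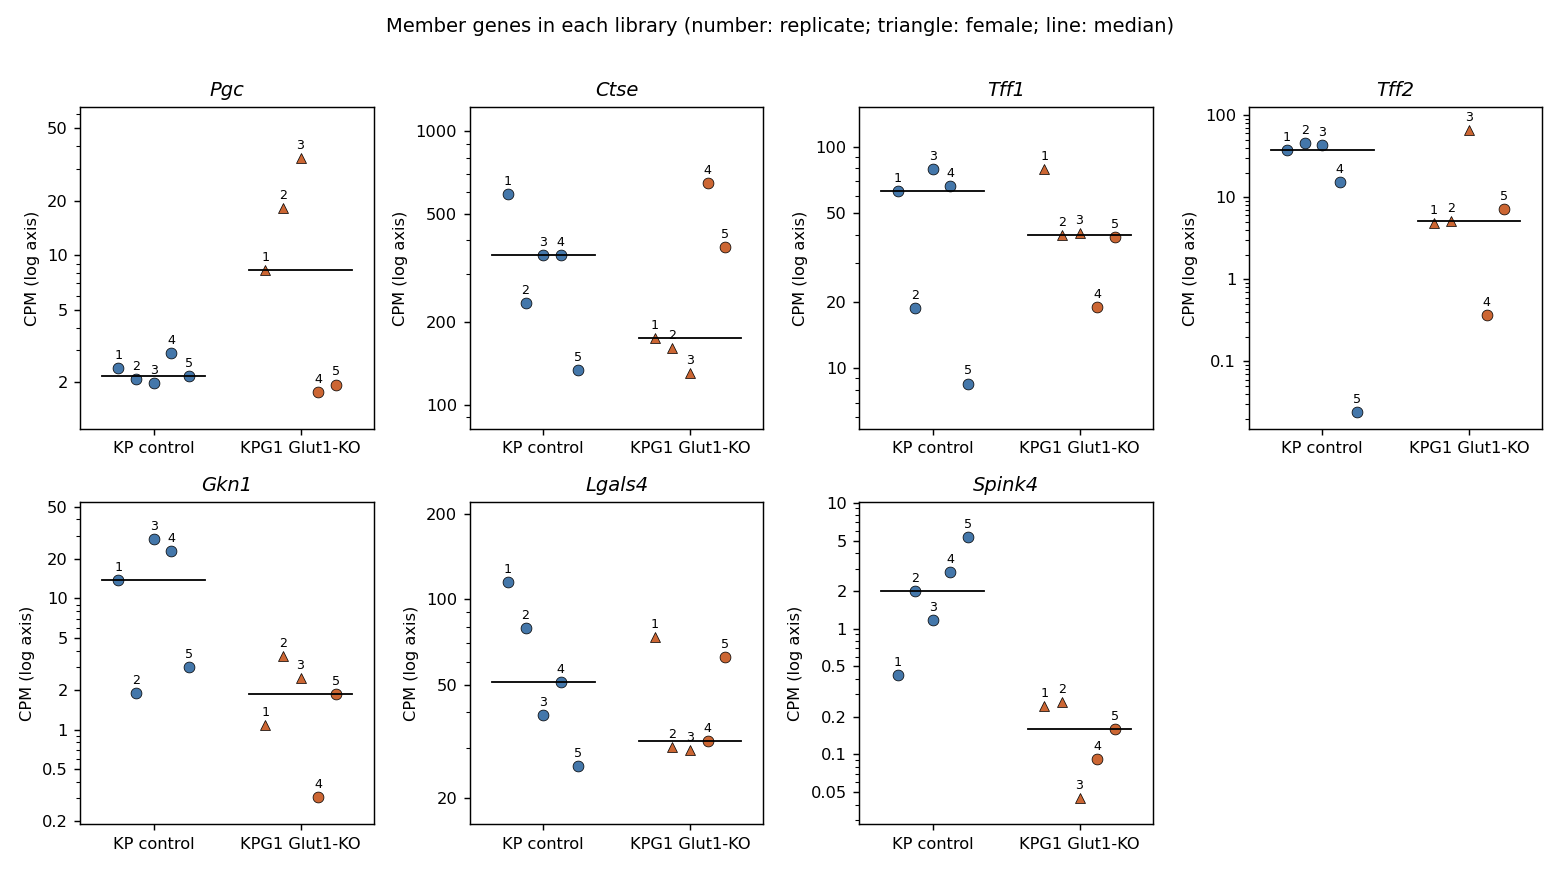
Level of each gastric-like gene in each library, in TMM-scaled CPM on a log axis, with replicate numbers beside the points, triangles for female libraries and a line at the group median. Pgc is high in the 3 female libraries labelled Glut1-KO, Tff2 reaches down to 0.0241 CPM in control replicate 5, and the groups are apart only for Spink4.

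Across the 7 genes, limma placed 0 past an adjusted p of 0.05, where it placed 0 of all 15922 genes (0%). At an unadjusted p under 0.05 it had 2 of the 7, Gkn1 and Spink4, and 1223 of all genes (7.68%). The edgeR quasi-likelihood test called 0 of the 7 and 0 of all genes, and DESeq2 called 3 of the 7 (Pgc higher, Gkn1 and Spink4 lower) and 210 of all genes (1.32%). Groups did not overlap for 1 of the 7, Spink4, which was lower. Over all genes that was so for 168 lower (1.06%), for 127 higher (0.798%) and for 295 in either direction (1.85%). Since these genes were picked on the same libraries, nothing is read from these shares. By the sign of limma's log2 difference, 2 members were higher and 5 lower, with Tff1 counted as higher although edgeR and DESeq2 gave it the other sign. Their median log2 difference was -0.37, and that of all genes -0.0049. In bulk RNA, fewer cells of a type and less RNA per cell cannot be told apart.

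**Figure D2:**
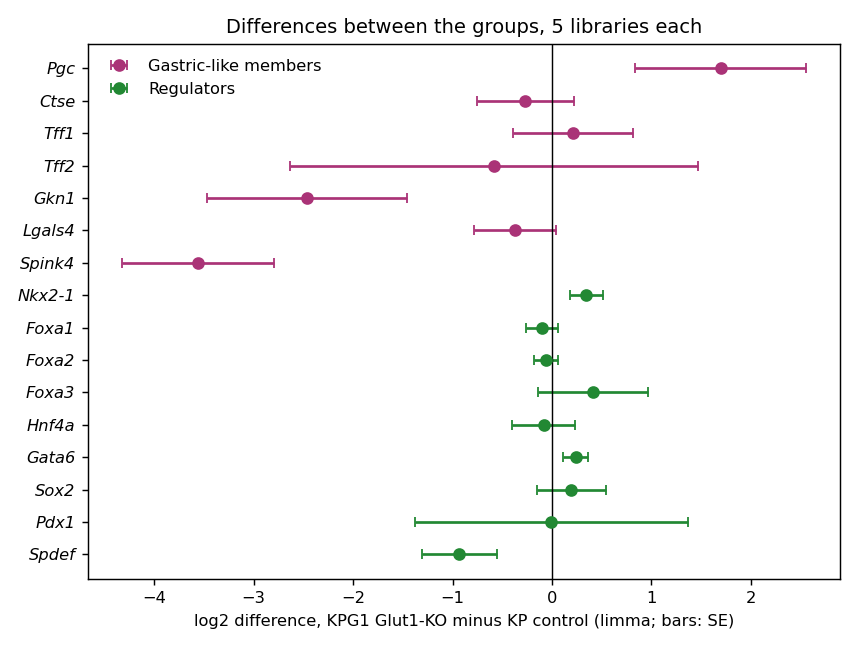
Log2 difference between libraries labelled Glut1-KO and KP controls (limma, 5 libraries each, bars of 1 SE) for the 7 gastric-like genes and 9 regulators, a positive value meaning higher in the libraries labelled Glut1-KO. Spink4 at -3.56 and Gkn1 at -2.46 lie lowest, Pgc at 1.70 lies highest, and Tff2 and Pdx1 have the widest bars.

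The members differed in how far they varied among the 10 libraries. The SD of log2 CPM was 3.46 for Tff2, the 15th largest of 15922 genes, 2.17 for Spink4 and 2.02 for Gkn1. Pgc had an SD of 1.54, larger than that of 96.3% of genes, and Tff1 had 1.06. Ctse with 0.85 and Lgals4 with 0.73 varied least of the members, but their SDs were still above the median gene's 0.357. Per exon length, median levels over the libraries ran from Ctse at 92.8 RPKM through Tff1 at 57.5, Lgals4 at 19.5, Tff2 at 19.4, Gkn1 at 2.19 and Pgc at 1.65 to Spink4 at 0.725 RPKM. Each gene overlapped its neighbours in this order. Ctse, for example, ran from 41.2 to 204 RPKM and Tff1 from 12.1 to 113 RPKM.

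**Figure D3:**
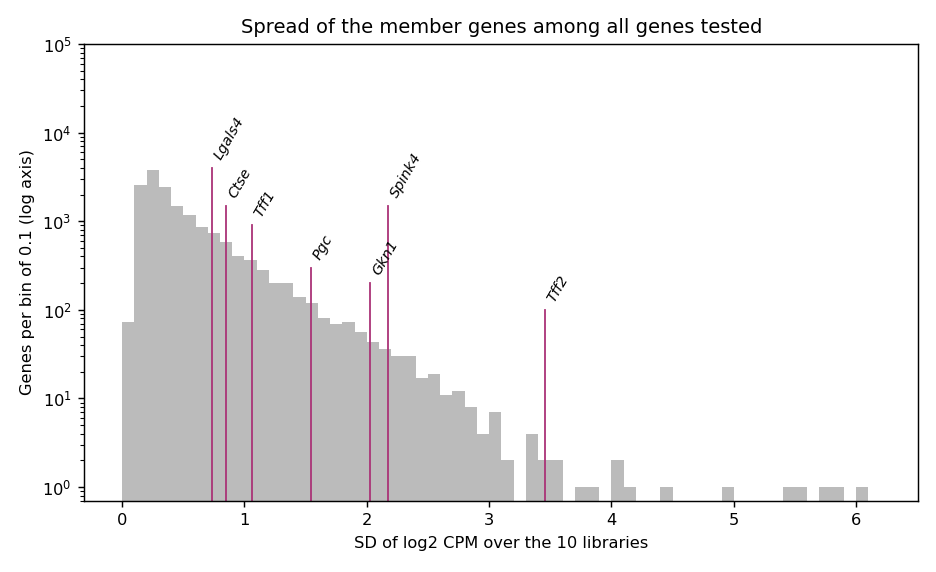
SD of log2 CPM over the 10 libraries for all 15922 genes tested (grey, number of genes per bin of 0.1 on a log axis), with lines at the 7 gastric-like genes. Lgals4 at 0.73 is nearest the bulk of genes and Tff2 at 3.46 lies far in the tail.

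Over the 10 libraries, which share groups, sexes and perhaps mice, Pearson's r of log2 CPM was highest for Tff1 with Tff2 at 0.698, with a Spearman's rho of 0.261, and r was 0.672 without the 2 libraries farthest from the median of Tff1. The lowest was Pgc with Ctse, at an r of -0.663 and a rho of -0.685, and r went to -0.439 without the 2 libraries farthest from the median of Pgc. Pgc with Gkn1 gave -0.105. For Spink4 with Gkn1 r was 0.50 and rho 0.576, and r was 0.35 without the 2 libraries farthest from the median of Gkn1. For Tff1 with Spink4 the same step, by the median of Tff1, took r from -0.263 to 0.648. By the median of Ctse, it took Ctse with Tff2 from 0.128 to 0.691 and Ctse with Gkn1 from 0.102 to 0.593. Ctse with Tff1 went from 0.232 to 0.554. These values thus depend on the 2 libraries left out together. These values are descriptions of 10 libraries.

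By the same measure, over 15196 autosomal genes, the genes most like Pgc were Sorcs2 (r 0.948, rho 0.709), Acss1 (r 0.941), Zfp563 (r 0.938), Glb1l (r 0.938) and Zhx3 (r 0.933). Without the 2 libraries farthest from the median of Pgc, r was 0.898 for Sorcs2 and from 0.671 (Acss1) to 0.742 (Glb1l) for the other 4. Sorcs2 encodes a sorting receptor and Acss1 the mitochondrial acetyl-CoA synthetase. The genes least like Pgc were Tubb6 (r -0.975, rho -0.891), a tubulin, Tes (r -0.966) and Cdkn2b (r -0.963), a cell cycle inhibitor. Cdkn2b averaged 30.7 CPM in controls, 11.9 CPM in the 3 females labelled Glut1-KO and 28.4 CPM in the 2 males. For Ctse the most similar were Aldh1a3 (r 0.972), which makes retinoic acid, Cnnm4 (r 0.970) and Calu (r 0.963). For Tff1 they were Frmd5 (r 0.913), Ptprr (r 0.871) and the gut regulator Gata5 (r 0.863). For Tff2 the first was Dmbt1 (r 0.914), a mucosal defence protein, and its r was 0.602 without the 2 libraries farthest from the median of Tff2. Fam132b (r 0.906) and Gmip (r 0.879) came next, at 0.613 and 0.40 without those libraries. For Gkn1 they were Cwc25 (r 0.918), Tlk2 (r 0.912) and Ism1 (r 0.911), for Lgals4 Cenpq (r 0.931), Cyp2c65 (r 0.927) and Dhrs7b (r 0.922), and for Spink4 Gpr3 (r 0.937), Wrap53 (r 0.935) and A3galt2 (r 0.931).

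The groups overlapped for every regulator named of the gastric and lung programs. Nkx2-1, the factor that holds lung identity, stood at 132, 190, 199, 173 and 244 CPM in control replicates 1 to 5 and at 237, 254, 277, 200 and 208 CPM in replicates 1 to 5 labelled Glut1-KO. It was present in every library, control replicate 1 having the least. Its log2 difference was 0.35 (SE 0.16). The exact permutation p was 0.0635 over every way to divide the libraries 5 to 5, and 0.262 after Benjamini-Hochberg adjustment over the 9 regulators tested. The smallest p the design allows is 0.00794. The permutation treats all libraries as exchangeable, which would not hold if the number in the deposited names stands for the mouse. It also takes no account of sex, and no control was female. The log2 difference of Nkx2-1 was 0.15 among male libraries alone or with sex as a covariate, which rest on the same male libraries, and 0.22 without control replicate 1. Hnf4a, a driver of gastric and gut genes, ran from 101 to 208 CPM in controls and from 61.4 to 223 CPM in libraries labelled Glut1-KO, and its log2 difference of -0.08 (SE 0.31) became 0.40 among male libraries alone. The pioneer factors Foxa1 (75.6 to 121 against 72.4 to 103 CPM) and Foxa2 (66.5 to 88.2 against 65.7 to 87.2 CPM) covered nearly the same range in both groups. Their log2 differences were -0.10 (SE 0.16) and -0.06 (SE 0.12). Leaving out 1 library moved Foxa1 from -0.19 (control replicate 4) to -0.013 (replicate 5 labelled Glut1-KO) and Foxa2 from -0.12 (control replicate 1) to -0.015 (replicate 2 labelled Glut1-KO).

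Gata6, a foregut factor, had a log2 difference of 0.24 (SE 0.13) and an exact permutation p of 0.0873 (0.262 after adjustment). Foxa3, a goblet cell factor, ran from 1.59 to 12.4 CPM in controls and from 4.11 to 15.0 CPM in libraries labelled Glut1-KO. Sox2, which marks foregut and stomach, had 14.1 to 44.6 and 14.1 to 36.7 CPM. Spdef, a regulator of goblet cells, had 1.87 to 4.81 and 0.928 to 2.79 CPM, with a log2 difference of -0.93 (SE 0.38) and an exact permutation p of 0.0635 (0.262 after adjustment). Foxa1, Foxa2, Foxa3, Hnf4a, Sox2 and Pdx1 gave exact permutation p-values from 0.508 to 0.992. Of the 9 regulators, 0 passed limma's adjusted p of 0.05, and limma's unadjusted p was under 0.05 for Spdef alone. The permutation test could not have passed a lone regulator, since its smallest p comes to 0.0714 after adjustment over 9. Pdx1, the factor of antrum and duodenum, had the widest range of the 9, at 11.3, 7.02, 1.58, 3.74 and 0.0723 CPM in control replicates 1 to 5 and 1.24, 1.02, 0.629, 1.75 and 28.3 CPM in replicates 1 to 5 labelled Glut1-KO. It was lowest in control replicate 5, as Tff1, Tff2 and Lgals4 were. The intestinal factors Cdx2 (at most 0.951 CPM), Cdx1 (at most 0.0254 CPM) and Isx (0 counts) were near or at the floor in every library, and Cdx2 was not tested.

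**Figure D4:**
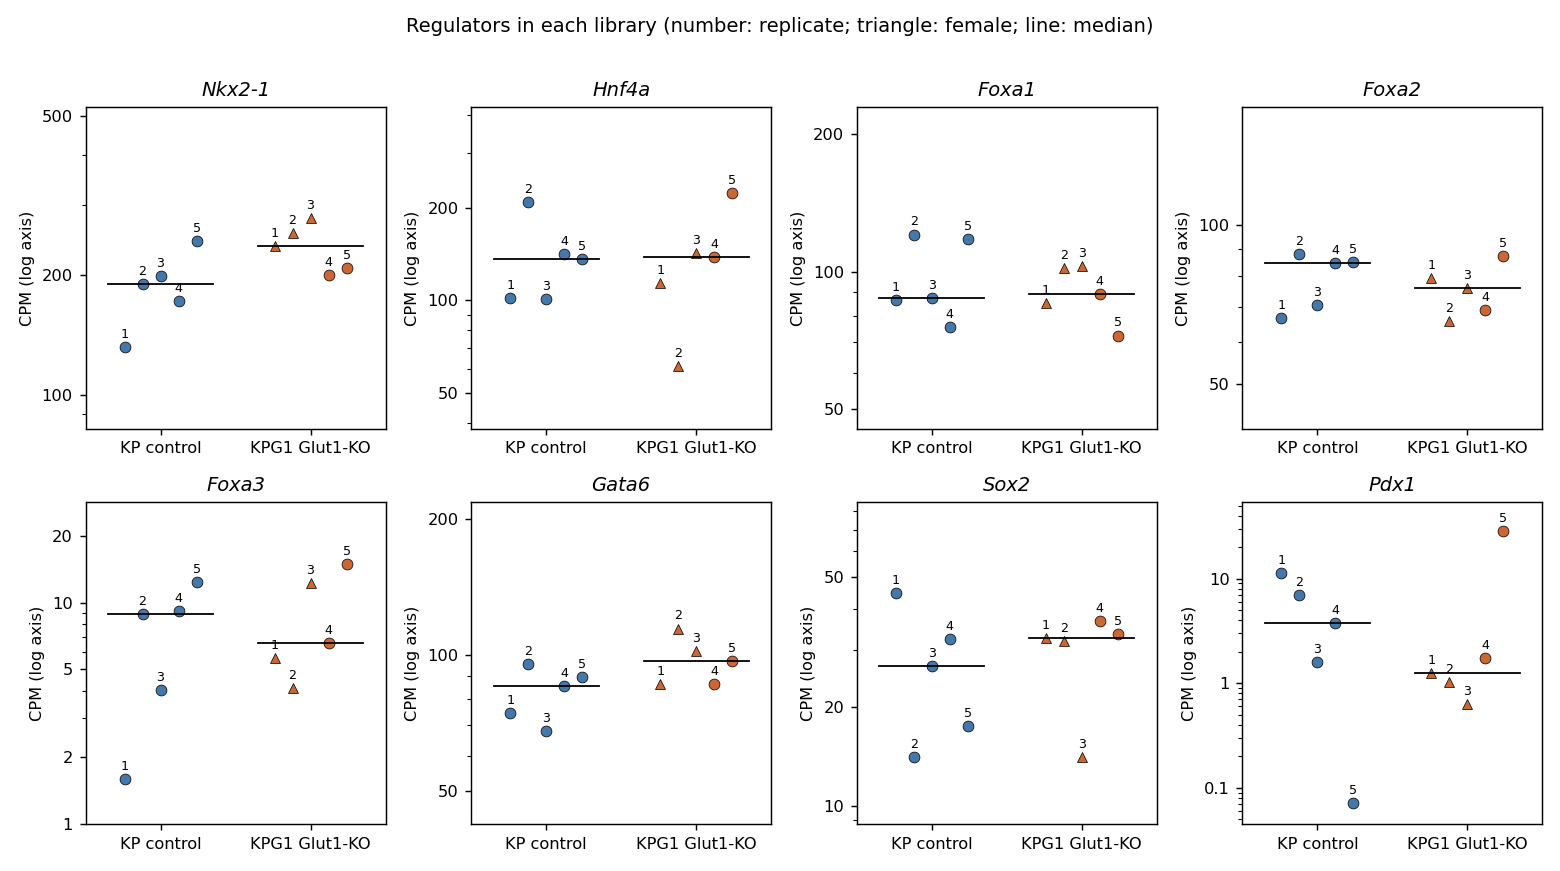
Level of 8 regulators in each library, in TMM-scaled CPM on log axes, with replicate numbers, triangles for female libraries and a line at the group median. The groups overlap in every panel, Nkx2-1 lies between 132 and 277 CPM in every library, and Pdx1 spans from 0.0723 to 28.3 CPM.

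Of the 26 foregut and gut regulators listed, 22 were tested, 8 higher and 14 lower, and 0 passed in either direction, with a median log2 difference of -0.07. In the list of other gastric genes (surface, neck and chief cells), 14 of 19 in the table were tested, 10 higher and 4 lower with 0 past the threshold, and the median was 0.31 against -0.0049 over all genes. Its summed level was 1985 to 2533 CPM in controls and 2034 to 2692 CPM in libraries labelled Glut1-KO. The tight junction gene Cldn18 made up part of it at 425 to 496 and 457 to 592 CPM (log2 difference 0.15, SE 0.10). Gkn2, the partner gastrokine, which lung also makes, had 52.2, 660, 130, 430 and 621 CPM in control replicates 1 to 5 and 164, 308, 438, 140 and 343 CPM in replicates 1 to 5 labelled Glut1-KO. The groups overlapped. The mucin Muc1 ran from 656 to 1402 CPM in controls, and Dpcr1, a mucin-like gene, from 8.05 to 37.7 CPM in controls and from 16.9 to 143 CPM in libraries labelled Glut1-KO (log2 difference 1.10, SE 0.65, and 0.63 without replicate 1 labelled Glut1-KO). The genes that define chief and neck cells most sharply were near 0. Gif reached at most 0.0243 CPM, Lipf 0.0225, Pga5 0.135 and Muc6 0.226 CPM in any library. Pga5, the other pepsinogen gene listed, had 4, 5 and 6 counts in female replicates 1 to 3 labelled Glut1-KO, the libraries with the most Pgc, and 0 to 3 counts in the male libraries.

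Acid-secreting and endocrine cells of the stomach were represented by 5 tested genes of 9, 3 higher and 2 lower with 0 past the threshold (median 0.22). Atp4b, a subunit of the gastric proton pump, had counts in 1 library only, at 0.073 CPM, and Atp4a reached at most 1.22 CPM. Gast reached at most 0.193 CPM and Sst at most 0.0225 CPM. Ghrl had 1.42 to 6.99 and 2.85 to 7.91 CPM (log2 difference 0.56, SE 0.46, running from 0.30 without control replicate 1 to 0.86 without control replicate 5). Hdc (116 to 315 and 181 to 383 CPM), Kcne2 (10.7 to 28.0 and 9.999 to 28.5 CPM) and Slc9a4 (5.16 to 28.7 and 5.93 to 19.8 CPM) were the most abundant of this list and are not particular to the stomach.

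Other intestinal genes came to 15 tested of 21, 8 higher and 7 lower with 0 past the threshold and a median of 0.04. The goblet peptide Tff3, a trefoil like Tff1 and Tff2 and their neighbour, had 0.0759, 2.19, 1.19, 14.1 and 70.8 CPM in control replicates 1 to 5. In the libraries labelled Glut1-KO it had 0.365, 0.0238, 0, 0 and 0.362 CPM. Control replicates 4 and 5 were highest, as they were for Spink4, and the groups overlapped through control replicate 1. The log2 difference was -5.60 (SE 2.13), and limma's adjusted p was 0.587. Without control replicate 5 the log2 difference was -4.48, and without control replicate 1 it was -6.80. Cdh17, an intestinal cadherin, had 153 CPM in control replicate 3 and 1.78 to 22.2 CPM in the other controls, against 0.268 to 2.58 CPM in libraries labelled Glut1-KO (log2 difference -3.89, SE 1.48, limma adjusted p 0.591, and -2.44 among male libraries alone). Vil1 (20.98 to 115 and 42.1 to 121 CPM), Gpa33 (52.8 to 157 and 100.03 to 245 CPM) and Tspan8 (364 to 616 and 340.5 to 528 CPM), abundant epithelial genes, overlapped between the groups, and the enterocyte genes Sis, Mep1a and Slc26a3 stayed below 1 CPM in every library.

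The families of the members (aspartic proteases, trefoils, gastrokines, galectins and Kazal inhibitors) gave 14 tested genes of 21 in the table, 6 higher and 8 lower, 0 past the threshold and a median of -0.03. Napsa, the aspartic protease of alveolar type 2 cells, ran from 85.6 to 1378 CPM in controls and from 344 to 1978 CPM in the other group. Ctsd, the lysosomal member of that family, stood at 937 to 2486 and 984 to 2118 CPM. The galectin Lgals1 had 13.0 to 176 and 11.4 to 37.6 CPM (log2 difference -1.06, SE 0.67, and -0.46 without control replicate 3), and its highest library, control replicate 3, was also the one with the most Gkn1 and Cdh17.

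Markers of other cells were set beside these values. For alveolar type 2 cells, which make Pgc, 12 of 12 markers were tested, 10 higher and 2 lower with 0 past the threshold (median 0.23). Their summed level was 28420 to 81040 CPM in controls and 52030 to 73640 CPM in libraries labelled Glut1-KO. Abca3, a lipid transporter of these cells, reached 2646, 2567 and 2258 CPM in the females labelled Glut1-KO, above all male libraries, as Pgc did. The surfactant gene Sftpa1 ran from 2392 to 9475 CPM in controls and from 2468 to 7034 CPM in the other group. Sftpb did not follow Abca3 and was highest in the males, replicates 4 and 5. The part of alveolar type 2 content in the Pgc values was not tested. For club cells, 11 of 11 markers were tested, 1 higher and 10 lower with 0 past the threshold (median -0.67), and their sum was 1951 to 10190 CPM in controls and 1064 to 7370 CPM in libraries labelled Glut1-KO. Cyp2f2 ran from 215 to 1536 and from 210.3 to 1693 CPM, Scgb1a1 ran from 1457 to 8732 and from 704 to 4814 CPM, Scgb3a2 had a log2 difference of -1.33 (SE 0.72, and -0.80 without control replicate 5) and Gabrp of -1.80 (SE 1.01).

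For airway goblet cells, beside which Spink4 and Tff3 are read, 8 of 9 markers were tested, 3 higher and 5 lower with 0 past the threshold (median -0.17), with sums of 298 to 1113 CPM in controls and 260 to 930 CPM in libraries labelled Glut1-KO. Fcgbp, a mucus protein, had 1.39, 2.39, 2.67, 15.5 and 35.9 CPM in control replicates 1 to 5 and 0.408 to 2.85 CPM in libraries labelled Glut1-KO, and was highest in the same controls as Spink4 and Tff3 (log2 difference -1.97, SE 0.99, and -1.31 without control replicate 5). The airway mucins Muc5b and Muc5ac did not follow that order. Muc5b was highest in control replicate 1, at 871 CPM, and control replicate 5 had 201 CPM. Muc5ac had 71.0 and 13.1 CPM in those libraries. Control replicate 4 was high in both mucins, at 719 CPM of Muc5b and 68.8 CPM of Muc5ac. Agr2, which helps fold mucins, overlapped between the groups at 19.1 to 73.8 and 7.99 to 77.4 CPM. For leukocytes, which the sort should remove, 15 of 21 markers were tested, 12 higher and 3 lower with 0 past the threshold (median 0.35). The groups did not overlap for 3 of them, all higher (0.798% of all genes). Ptprc, which encodes CD45, had 2.30 to 3.26 CPM in controls and 5.05 to 10.1 CPM in libraries labelled Glut1-KO (log2 difference 1.47, SE 0.25, limma adjusted p 0.230). Coro1a (log2 difference 1.01, SE 0.27) and Laptm5 were the other pair. The macrophage gene Cd68 overlapped, at 15.9 to 19.8 and 15.4 to 29.0 CPM. The summed leukocyte level was 347 to 478 CPM in controls and 366 to 601 CPM in libraries labelled Glut1-KO. Its part in the lower Spink4 and Gkn1 values was not tested. At an unadjusted p under 0.05, limma had 6 of 15 leukocyte markers, 4 of 22 regulators, 2 of 15 intestinal genes, 1 of 8 goblet markers and 1 of 14 genes of the members' families, and 0 in each of the other lists, where it had 7.68% of all genes. The lists share genes, so these counts are not independent. Spdef was counted as goblet marker and as regulator, and Tff3 as family gene and as intestinal gene. By its own adjusted p, DESeq2 called 4 of the 15 leukocyte markers tested, 1 of 22 regulators, 3 of 15 intestinal genes, 1 of 8 goblet markers and 1 of 14 genes of the members' families, against the 1.32% of all genes. Here the goblet marker was Fcgbp and the family gene Tff3, and both are also among the 3 intestinal genes.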

How the data were processed

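The members and the gene lists were chosen with earlier results of these data known. The authors prepared libraries from 500 ng RNA with a stranded mRNA kit and sequenced single-end reads of 85 bases. Per the labels, the processing named bcl2fastq 2.17, cutadapt 1.4.2, HISAT2, featureCounts 1.4.4, edgeR and the mm10 build. The strand setting and the annotation release were not given in the sources used here. The deposited files hold raw read counts per gene, and the 10 columns of the combined table equalled the 10 single files. A deposited table of log2 values was not used. An allele shared by all mice is not reported here.

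Genes were kept by filterByExpr of edgeR 4.0.16 (minimum count 10, minimum total 15). TMM factors scaled the library sizes, voom (prior count of 0.5) gave weights, and limma 3.58.1 in R 4.3.3 fitted the group alone, with Benjamini-Hochberg adjustment over all 15922 genes and a threshold of 0.05. The study's methods name the same steps and filter by TPM instead, and a mean TPM of 20 leaves 4 of the 7 members (Ctse, Tff1, Tff2 and Lgals4), so Pgc, Gkn1 and Spink4 have no value under it. The p-values measure the spread between libraries, which may be technical in part. Levels are CPM, RPKM used exon lengths of GENCODE M21 (GRCm38, which held 96.6% of the 39017 gene IDs), and single regulators were given a 2-sided exact permutation test. No stretch of 85 bases of a member's transcripts occurred on the same strand in another gene. The fit was tested on simulated data.

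Named were all 7 members, 10 regulators, and of every other list the 3 tested genes with the highest mean and the 2 with the smallest p. Genes near 0, Laptm5, Sis, Mep1a and Slc26a3 were named after their values were seen. Likeness was Pearson's r with each member over autosomal genes that passed the filter. Alternatives were DESeq2 1.42.0 and edgeR tests, other scalings, filters and prior counts, sex as a covariate, male or female libraries, libraries summed by the number in their names, a replicate block and leaving out each library.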

Additional observations from a re-analysis of the deposited data

Results flagged for a closer look

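Among 122 groups of 5 values, 17 held 1 library whose gap to the others was over 0.71 of the group's range. For normally distributed values chance gives about 5% of groups, but CPM are skewed, so the number is not set against chance. Among the members, which were picked because few tumours carried them, Tff2 in replicate 3 labelled Glut1-KO did so, at 66.0 CPM against 0.368 to 7.16 CPM in the other 4. Among regulators, Pdx1 stood apart in replicate 5 labelled Glut1-KO (28.3 CPM against 0.629 to 1.75), Sox2 in replicate 3 (14.1 CPM against 32.0 to 36.7), and Cdx2 in control replicate 1 (0.582 CPM) and in replicate 5 labelled Glut1-KO (0.951 CPM). Pdx1 and Cdx2 were thus highest in the same library.

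Gut and stomach genes gave Tff3 at 70.8 CPM in control replicate 5, Cdh17 at 153 CPM in control replicate 3, Atp4a at 0.173 CPM in control replicate 3 (others 0.380 to 0.458) and Muc1 at 766 CPM in replicate 5 labelled Glut1-KO (others 1310 to 1500). The summed intestinal list was low in control replicate 3, at 689 CPM against 891 to 950 CPM, although Cdh17 was highest there. The galectin Lgals1 stood apart in control replicate 3 (176 CPM) and in replicate 4 labelled Glut1-KO (37.6 CPM). Club cell genes did so in replicate 1 labelled Glut1-KO, Cbr2 at 593 CPM and Scgb3a2 at 18.9 CPM. Of leukocyte genes, Mrc1 did so in control replicate 2 (28.4 CPM) and in replicate 5 labelled Glut1-KO (22.1 CPM), and Lcp1 in control replicate 4 (426 CPM).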

How the results depend on the processing

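Over all genes the limma fit called 0 genes. DESeq2 called 210 (108 higher, 102 lower), the fit with sex as a covariate 3, male libraries alone 1, female libraries labelled Glut1-KO against all controls 9, and libraries summed by the number in their names 2. Leaving out 1 library gave 0 to 1, the 1 without control replicate 3. Within the lists DESeq2 called 3 members, 1 goblet marker, 1 regulator, 3 intestinal genes, 4 leukocyte markers and 1 gene of the members' families. The lists share genes, and the goblet marker (Fcgbp) and the family gene (Tff3) are also among the 3 intestinal genes. The causes were not tested.

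Gkn1 (-3.32 to -1.91), Lgals4 (-0.64 to -0.11) and Spink4 (-4.03 to -3.16) kept their sign under all alternatives run. Pgc went from -0.28, with sex as a covariate or male libraries alone, to 2.94 with female libraries labelled Glut1-KO alone, and Ctse from -0.94 to 0.74. No control was female, so sex as a covariate and male libraries alone estimate the same difference. Their agreement is fixed by the design. Tff1 changed sign in 8 of 22 alternatives and Tff2 in 3 of 22. Pdx1 changed sign to 0.0010 with DESeq2 size factors, 0.47 with edgeR and with DESeq2, and 1.91 with sex or male libraries alone, and ran from -1.16 to 0.58 on leaving out 1 library. With sex as a covariate, and with male libraries alone, Abca3 became -0.082 and -0.083 and Hnf4a 0.40. With female libraries Foxa1 became 0.0086 and Sox2 -0.0017. On leaving out 1 library Foxa3 ran from -0.033 to 0.68, Hnf4a from -0.28 to 0.17 and Sox2 from -0.031 to 0.46.

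With the replicate number as a block 0 genes passed. Libraries with the same replicate number correlated at -0.132 to 0.197, and 1 of 5 control libraries correlated best with its own replicate number. No pairing by replicate number was seen, though so few correlations cannot exclude one. Depth limits Spink4 in the libraries labelled Glut1-KO (2 to 11 counts) and Tff2 in control replicate 5 (1 count).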

Other observations

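Further gut genes are named after their values were seen. Krt20, a keratin of surface and gut epithelium, stood at 213 CPM in control replicate 1 and 284 CPM in replicate 4 labelled Glut1-KO, the libraries with the most Ctse, and at 6.56 to 48.5 CPM in the other 8. Anxa10, an annexin of gastric surface cells, was also highest there, at 149 and 189 CPM, and lowest in control replicate 5 at 6.92 CPM. Muc13, a gut mucin, had 4.68 CPM in control replicate 5 and at most 0.296 CPM elsewhere. Guca2a, the guanylin gene, had 47.9 CPM in control replicate 5 and at most 14.5 CPM elsewhere. That library thus had the most Spink4, Tff3, Fcgbp, Muc13 and Guca2a and the least Tff1, Tff2 and Lgals4. Other genes of the intestinal list went the other way there. Gpa33 was the lowest of all libraries (52.8 CPM), and Cdh17 (1.78 CPM) and Krt20 (7.72 CPM) were the lowest of the controls. Onecut2, a gut and liver regulator, ran from 12.2 to 99.1 CPM in controls and from 2.33 to 39.6 CPM in libraries labelled Glut1-KO, a log2 difference of -2.43 (SE 0.85, limma adjusted p 0.531), with the 3 females of the latter (2.33 to 10.7 CPM) below all controls and the 2 males at 23.985 and 39.6 CPM. Klf4, a regulator of surface and goblet cells, had the smallest p of the regulators listed. It ran from 95.4 to 218 CPM in controls and from 74.6 to 95.7 CPM in libraries labelled Glut1-KO, 4 of which lay below all controls (log2 difference -0.93, SE 0.20, limma adjusted p 0.314).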
